A study of Mus musculus with 11 samples.

Results

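The results concern 18 windows of DNA, each 500 bp long, that the authors listed under 5 genes: 5 windows each under Hs3st5, Map3k7 and Nudt12, 2 under Triqk and 1 under Mast4. They were found by gene name among the 1239 windows of 4 deposited lists, and all 18 stood in 1 list, that of ventral 24 h against 22 h, which holds 812 windows. The 5 genes were chosen by the RPKM values of this list, where 22 h exceeds 24 h, so the differences between cycle lengths are given as a description, without a test. The study took the suprachiasmatic nucleus (SCN), the brain's circadian pacemaker in the hypothalamus, from wild-type C57BL/6Cr1 mice. Mice were kept under a light-dark cycle lasting 22, 24 or 26 h during 6 weeks, and constant darkness followed for 3 days. The tissue was taken at circadian time 4, at a labelled age of postnatal day 90, and cut into ventral and dorsal pieces. The labels give 2 samples for ventral 24 h and 2 for ventral 22 h, but each cycle length has a single column in the list, so no spread between mice could be seen.

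Methylated DNA was captured with an antibody and sequenced (MeDIP-seq), and its amount is given as RPKM, the reads in a window scaled to its length and to all reads of the column. Capture of this kind depends both on how many cytosines in a stretch are methylated and on how many CpG dinucleotides, the usual site of methylation in mammals, the stretch holds. LINE-1 elements are retrotransposons that copy themselves through RNA. In the mouse their promoter is a row of tandem units, followed by a short and a long reading frame, and the long frame encodes a reverse transcriptase. These promoters are dense in CpG and are kept methylated in most tissues, which holds back their transcription. Brain tissue is one of the places where LINE-1 activity has been studied.

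None of the 18 windows overlapped a gene in the GENCODE M1 annotation of the same genome build (mm9), and most lay far from the gene they are named after. Map3k7 encodes a kinase of TGF-beta and inflammatory signalling and lies on chromosome 4 (32051072 to 32110442). Its 5 windows adjoined each other in a block from 31863001 to 31865500, between 185.8 and 187.8 kb before the start site in the authors' deposited table. Hs3st5 encodes an enzyme that adds sulfate to heparan sulfate chains. Its windows on chromosome 10 formed a block of 4 (35396501 to 35398500) and 1 single window (35241001 to 35241500), between 828.4 and 985.4 kb before the start site in the authors' deposited table. The annotation places Amd2 nearer, 30.5 kb from the window at 35397501.

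Nudt12 encodes a hydrolase of NADH and related nucleotides. Its windows on chromosome 17 were a block of 3 (59184501 to 59186000), 31.7 to 32.7 kb from the gene in the annotation, and 2 single windows at 60449501 and 60558001, which lay 1297.0 and 1405.5 kb away in the authors' deposited table. The 2 Triqk windows on chromosome 4 (13223001 to 13224000) lay 389.3 and 389.8 kb beyond the start site of Triqk in the authors' deposited table. Triqk encodes a small membrane protein. The annotation holds no gene of that name, so an overlap with Triqk itself was not checked. The Mast4 window on chromosome 13 (104191001 to 104191500) lay 66.7 kb before the start of Mast4, a microtubule-associated kinase gene, and 3.3 kb from the predicted gene Gm16416. The 18 windows thus made 8 blocks, where a block is a run of windows of 1 gene with no gap.

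The reference sequence of 6 of the 8 blocks was a row of tandem units. A complete unit of each row is shown because these units make up most of the listed DNA. Each unit lies within the listed windows, was chosen for a CpG number near the median of its row, and is written in the direction of the element. Capitals mark CpG dinucleotides. The first 4 belong to a first kind of unit and the last 2 to a second kind.
Map3k7 unit, chr4:31863257-31863464, plus strand: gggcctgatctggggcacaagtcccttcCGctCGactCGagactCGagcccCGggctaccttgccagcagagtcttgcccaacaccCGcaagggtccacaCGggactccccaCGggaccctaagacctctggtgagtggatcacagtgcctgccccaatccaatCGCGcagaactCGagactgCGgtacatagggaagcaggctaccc
Hs3st5 unit, chr10:35396667-35396874, plus strand: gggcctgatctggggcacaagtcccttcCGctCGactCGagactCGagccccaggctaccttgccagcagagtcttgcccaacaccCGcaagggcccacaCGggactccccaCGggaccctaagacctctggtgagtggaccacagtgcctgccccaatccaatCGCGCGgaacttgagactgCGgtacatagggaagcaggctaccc
Nudt12 unit, chr17:59184505-59184712, plus strand: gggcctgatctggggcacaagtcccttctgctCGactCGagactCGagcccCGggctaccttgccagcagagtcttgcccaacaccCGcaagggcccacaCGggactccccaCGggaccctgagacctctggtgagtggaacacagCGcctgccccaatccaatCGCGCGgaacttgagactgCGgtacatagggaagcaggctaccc
Mast4 unit, chr13:104191008-104191208, plus strand: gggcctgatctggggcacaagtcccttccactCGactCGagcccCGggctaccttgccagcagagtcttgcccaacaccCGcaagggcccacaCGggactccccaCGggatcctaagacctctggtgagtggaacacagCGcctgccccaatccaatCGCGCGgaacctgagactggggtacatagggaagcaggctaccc
Triqk unit, chr4:13223251-13223462, minus strand: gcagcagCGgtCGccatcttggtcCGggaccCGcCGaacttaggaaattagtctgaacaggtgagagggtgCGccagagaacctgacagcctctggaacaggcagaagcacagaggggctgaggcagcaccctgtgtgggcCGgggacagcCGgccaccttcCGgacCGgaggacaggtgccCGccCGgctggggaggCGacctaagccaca
Hs3st5 unit, chr10:35241134-35241347, minus strand: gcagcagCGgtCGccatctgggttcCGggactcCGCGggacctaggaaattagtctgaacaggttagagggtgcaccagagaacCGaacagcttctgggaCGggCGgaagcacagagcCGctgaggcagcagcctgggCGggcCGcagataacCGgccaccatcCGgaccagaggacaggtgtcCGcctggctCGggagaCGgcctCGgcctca

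Unit lengths barely varied within a row. The Map3k7 row had 14 complete units of 208 bp, the Hs3st5 row on the plus strand 8 of 208 to 209 bp, the Nudt12 row 7 of 208 bp and the Mast4 row 2 of 201 bp. Across these 31 units the first kind held between 10 and 13 CpGs per unit. Taking the 12 CpGs of the Nudt12 unit shown above as the reference, 3 were present in all 31 units and 9 in at least 90% of them. The least kept CpG, at base 147 counted from 1 at the first base of that unit, was present in 11 of 31 units. The second kind had 3 complete units of 210 to 212 bp at Triqk, with 12 to 14 CpGs each, and 2 of 214 bp at the single Hs3st5 window, with 15 and 17.

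Units of the first kind were nearly the same sequence on 4 chromosomes. Within the Map3k7 row, pairs of units were 94.7 to 100% identical (median 98.1%, 91 pairs). Units of Map3k7 set against units of the Hs3st5 row gave the same range, 94.7 to 100% (median 97.8%, 112 pairs). The Nudt12 units were 94.7 to 97.1% identical to those of Map3k7 and the Mast4 units 92.3 to 93.8%. The second kind was less alike between blocks, with 84.7 to 86.4% between Triqk and the single Hs3st5 window. Between the 2 kinds, identity was 52.9 to 54.9%. The 2 kinds were thus distinct in sequence while close in unit length.

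Word recurrence gave the same picture without a fixed motif. In the Map3k7 window with the most reads at 22 h, 66.9% of its 15-base words recurred exactly 416 bp away, which is 2 units. The corresponding share was 91.8% at 416 bp for the Hs3st5 block of 4, 96.9% at 416 bp for the Nudt12 block, 90.7% at 201 bp for Mast4, 59.3% at 212 bp for Triqk and 64.6% at 214 bp for the single Hs3st5 window. The 2 single Nudt12 windows had no such period. A window counted as tandem if 30% or more of these words had a copy at about the length of a unit but none nearer than 100 bp, and 14 of the 18 windows (77.8%) met this. Among the other 597 windows of the list that were lower at 24 h the share was 55.8%, and in every 2000th window of the genome grid 0.0782%. The others were the 2 single Nudt12 windows and the last windows of the Hs3st5 and Triqk blocks, where the row of units ends.

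**Figure D1:**
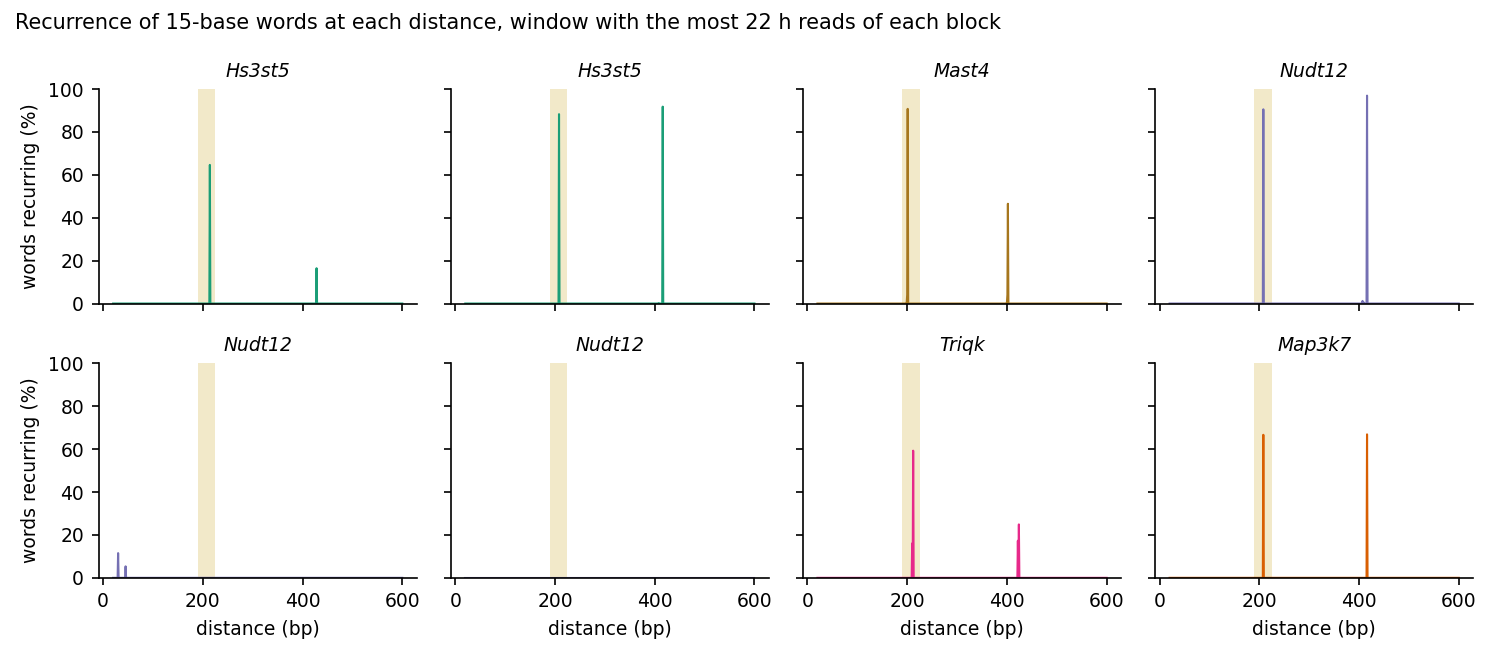
For each of the 8 blocks, the share of 15-base words (percent, vertical axis) that recur at each distance (bp, horizontal axis), in the window with the most reads at 22 h and 1000 bp on either side. The shaded band marks the lengths counted as a unit: 6 blocks have a sharp peak there and another at 2 unit lengths, the latter from 16.5% at the single Hs3st5 window to 96.9% at the Nudt12 block of 3; the fifth panel (Nudt12, 60449501) peaks at 30 bp with 11.5%, and the sixth (Nudt12, 60558001) is flat.

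Behind every row lay the reading frames of a LINE-1 element, on the strand and in the direction of the units. At the Hs3st5 block of 4, a frame of 379 codons began 255 bp after the last unit motif, and a frame of 1300 codons with the LINE-1 reverse transcriptase motif followed it. The Nudt12 block had frames of 393 and 1296 codons, Triqk of 384 and 1300, the single Hs3st5 window of 382 and 1300, and Mast4 of 393 and 921. The first of these frames started 255 to 297 bp after the last unit motif in all 6 rows. Map3k7 had the same first frame of 379 codons at 255 bp, but its long frame was split: 719 codons were followed, after a gap of 3 bp and in the same frame, by 381 codons that hold the motif. For this reason Map3k7 is not among the 11 of 18 windows that lay within 8000 bp of a frame of at least 600 codons with the motif. The 11 are 61.1% of the members, and 55.9% of the other 597 lower windows lay as near to such a frame. With a minimum of 300 codons, 16 of 18 members did. The share of the other windows at this lower minimum is not given here, so that count has no comparison.

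The 2 single Nudt12 windows were of another kind. That at 60449501 overlapped a frame of 616 codons and lay 0.77 kb from a frame of 1028 codons with the reverse transcriptase motif of LTR retrotransposons, the class related to retroviruses. That at 60558001 lay within 8000 bp of no frame of 300 codons or more, so the label of a retrotransposon has no support from these features there. It was also the least dense in CpG, with 12 in the window.

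The other 17 windows held 14 to 33 CpGs, and the median of all 18 was 29. Of the 18, 15 held at least 20 CpGs, against 1.1% of the 5116421 windows of the same grid in the genome without unknown bases, whose median was 3. The other 597 windows of the list that were lower at 24 h had a median of 28, and 81.1% held at least 20, so the members resembled the rest of the list in this. Their median GC content was 62.7%, against 61.2% in the 597 and 41.6% in every 2000th window of the grid (2559 windows). Windows beside the blocks were not listed. Next to the Map3k7 block they held 20 and 25 CpGs, and 85.4% of its row lay within the block.

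**Figure D2:**
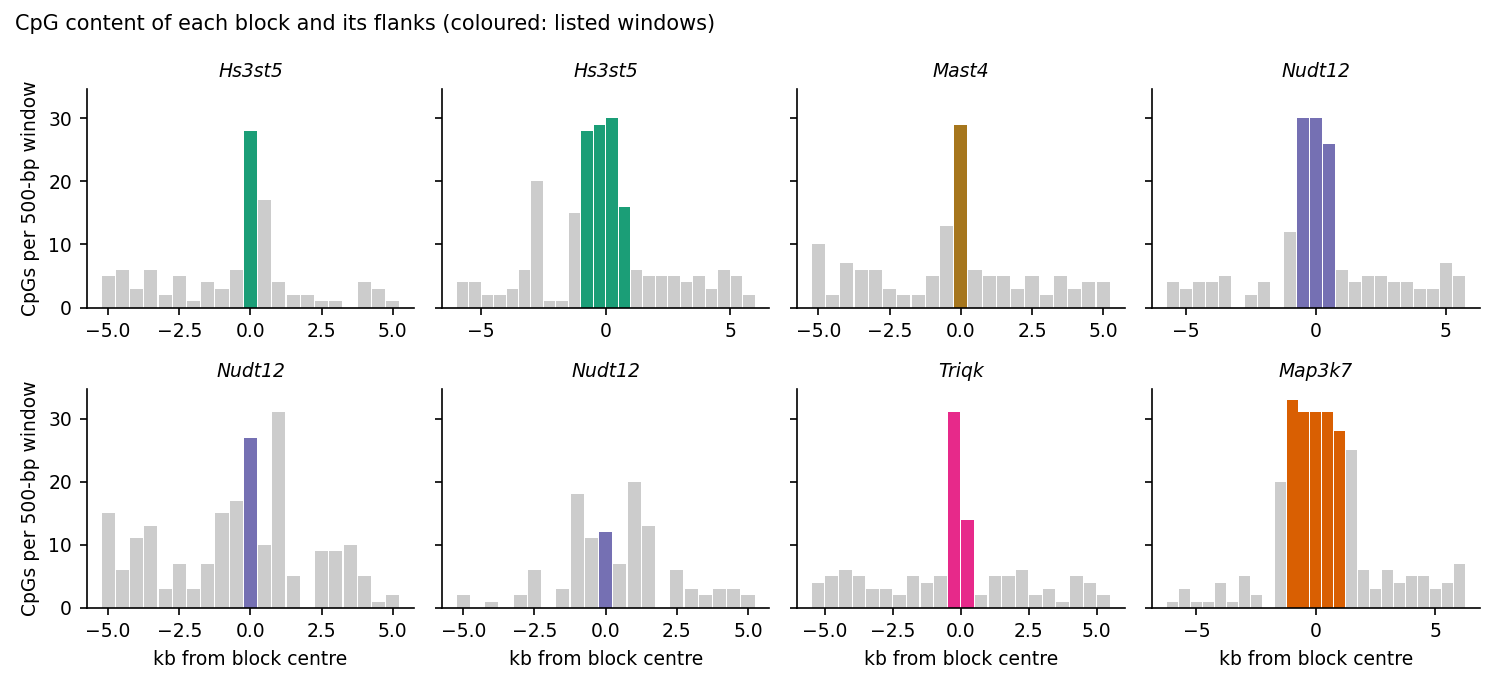
CpG dinucleotides per 500-bp window (vertical axis) by distance from the centre of each block (kb, horizontal axis), with listed windows coloured and unlisted ones in grey. Listed windows hold 12 to 33 CpGs and flanking windows have medians of 3 to 8, but single unlisted windows reach 31 beside the listed 27 at Nudt12 (60449501), 20 beside the listed 12 at Nudt12 (60558001) and 20 near the Hs3st5 block of 4, whose last window has 16.

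Captured DNA was lower at 24 h than at 22 h in all 18 windows. The members were chosen by this difference, and in the list 75.7% of windows were lower at 24 h, so the count is not a result about the members. In all 18 the interval of the ratio also lay above 1, as in 75.1% of the list. That share is 610 of the 615 windows lower at 24 h, members included. The depth recovered from the RPKM values was about 5230000 reads at ventral 24 h and 8170000 at ventral 22 h, and 1 read was worth 0.38 RPKM in the first column and 0.24 in the second. Fold changes are ratios of reads scaled to these depths, with exact 95% intervals (Clopper-Pearson). Intervals cover counting error only. Fragments averaged 300 bp, so that a fragment can reach into an adjoining window, and windows of a block are not independent.

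At Map3k7 the 5 windows, in the order of the chromosome, had 4.59, 3.44, 3.82, 2.68 and 2.68 RPKM at 24 h. At 22 h they had 18.85, 21.3, 18.36, 16.16 and 15.91 RPKM. The second window was the highest at 22 h, and no 24 h value came near any 22 h value. Summed over the block, 45 reads at 24 h stood against 370 at 22 h, a ratio of 5.26 (95% interval 3.86 to 7.34). The interval for each window overlapped those of the other 4, the lowest ratio being 4.11 (2.22 to 8.29) in the first window and the highest 6.19 (3.11 to 14) in the second. The deficit was thus similar along the 2500 bp of the block, within counting error.

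The Hs3st5 block of 4 had 2.68, 2.68, 3.82 and 2.68 RPKM at 24 h. At 22 h it had 14.93, 19.34, 24.72 and 13.95 RPKM, so that the level rose to the third window and fell again in the last, which held 16 CpGs against 28 to 30 in the first 3. The third window (35397501 to 35398000) was the highest of all 18 at 22 h, with 101 reads, and had 10 at 24 h. In the authors' deposited table it had a log2 fold change of -2.95 and the second lowest p-value of the list, 1.02e-17, which compares 1 column with another and is unadjusted. The ratio over the block was 6.15 (4.24 to 9.22). The single Hs3st5 window, built of the second kind of unit, had 2.29 RPKM at 24 h and 14.2 at 22 h, a ratio of 6.19 (2.68 to 17.6). The 2 kinds of unit gave nearly the same ratio at this gene.

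The Nudt12 block of 3 had 0.38, 1.53 and 1.91 RPKM at 24 h and 11.99, 19.09 and 14.2 at 22 h. The middle window was the highest at 22 h, as at the other long blocks the highest lay inside and not at an end. The 24 h values rest on 1, 4 and 5 reads. The ratio over the block was 11.8 (6.3 to 25.1), on 10 reads against 185. The first window alone gave 31.4, with an interval of 5.37 to 1260 because of its single read at 24 h. The 2 single Nudt12 windows, which are not tandem units, had 4.21 and 4.59 RPKM at 24 h against 16.4 and 17.62 at 22 h. Their ratios were 3.9 (2.05 to 8.18) and 3.84 (2.07 to 7.78). These are the lowest ratios of the 8 blocks, but their intervals overlap that of the block of 3. All 5 windows of Nudt12 together gave 6.29 (4.39 to 9.29), which therefore mixes 2 kinds of sequence.

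Mast4 and Triqk had no reads at 24 h. The Mast4 window had 0 RPKM at 24 h and 8.81 at 22 h (36 reads). With 3 reads as the floor this is at least 7.68-fold lower at 24 h, and by the exact interval at least 5.93-fold. The Triqk windows had 0 and 0 RPKM at 24 h, and 7.59 and 6.85 at 22 h. Over both, 0 reads stood against 59, at least 12.6-fold lower with a floor of 3 reads over the pair and at least 9.92-fold by the exact interval. A count of 0 allows up to 1.41 RPKM in a window of the 24 h column by the exact 95% interval, and the floor of 3 reads is 1.15 RPKM. These 3 windows were also the lowest of the 18 at 22 h. In the list, 3.82% of windows were lower with 0 reads at 24 h, and of the other 597 lower windows 28 had 0 reads.

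**Figure D3:**
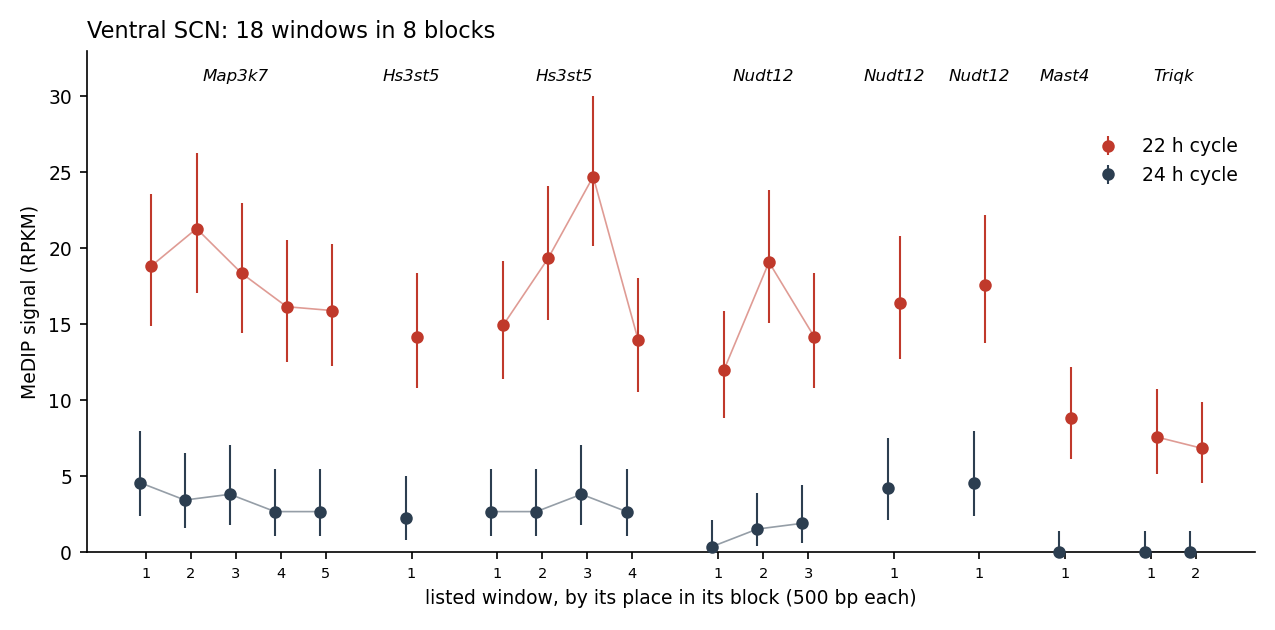
MeDIP signal (RPKM, vertical axis) of the 18 windows at ventral 22 h (red) and ventral 24 h (dark), ordered by gene and by place in the block (horizontal axis), with lines joining windows of a block and bars giving the exact 95% Poisson interval of the reads. All 22 h values lie between 6.85 and 24.72 and all 24 h values between 0 and 4.59, and in each window the bars do not overlap.

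**Figure D4:**
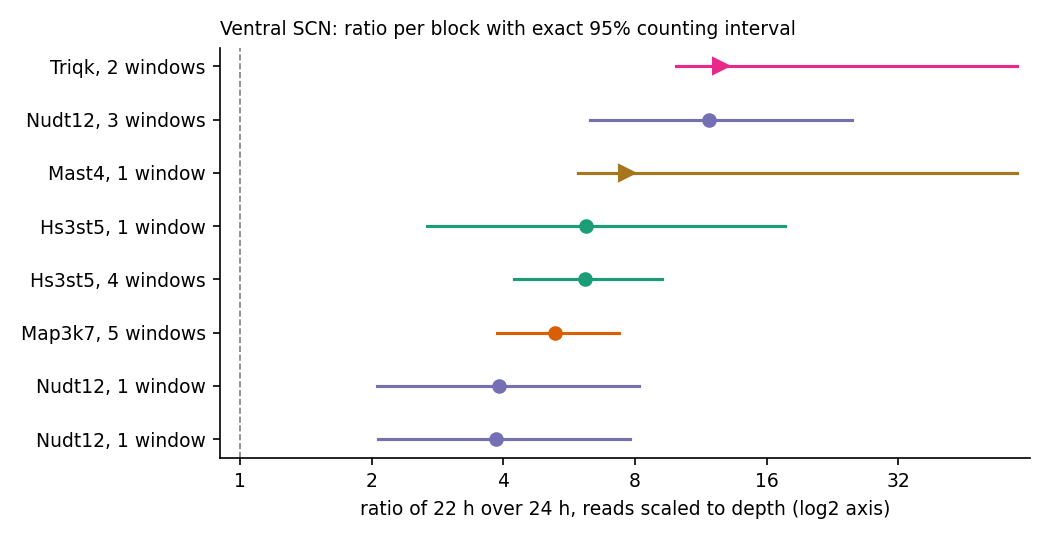
Ratio of 22 h over 24 h per block, from reads scaled to depth (log2 horizontal axis), with exact 95% counting intervals as lines, and arrows where 24 h had 0 reads and the ratio is a lower bound against a floor of 3 reads. All 8 intervals lie above 1, from 2.05 at the lower end of a single Nudt12 window, and the lines of Triqk and Mast4 have no upper end.

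At least 4-fold lower at 24 h were 16 of the 18 windows, and the rule used these values. The list as a whole had 61.8%, a share that also counts the 197 windows higher at 24 h, which could not qualify. Of the 615 windows lower at 24 h, members included, 502 were at least 4-fold lower. The median of the 18 ratios was 6.11, with the windows of 0 reads at their bound, against 5.38 for the other 597 lower windows. Among windows that hold a 16-base stretch of the first kind of unit, GGGCCTGATCTGGGGC on either strand, the 12 members had medians of 2.68 RPKM at 24 h and 17.26 at 22 h. The 223 others of the list had 3.06 and 16.4. The stretch occurs in 0.0669% of all windows of the genome grid (3425 windows), of which 6.86% are in the list. For the second kind the stretch searched was GCAGCAGCGGTCGC, which 3 members, 88 other lower windows and 0.102% of the grid hold. Here the 3 members had lower medians, 0 RPKM at 24 h and 7.59 at 22 h, than the 88 others with 1.72 and 12.24. A match says only that these letters are in the window.

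CpG number and level were weakly related among the members. Between CpG number and 22 h level, Spearman's rho was 0.37 over the 18 windows and 0.41 over the other 597. For the 24 h level the coefficients were 0.09 and 0.36. Over the 14 members with tandem units alone, rho was 0.3 for the 22 h level and 0.36 for the 24 h level. The low value at 24 h thus appeared only with the members without tandem units included. These are descriptions over windows that share columns, and in blocks also fragments. Triqk and Mast4 show the limits of the relation: the first Triqk window had 31 CpGs and 7.59 RPKM at 22 h, and Mast4 29 CpGs and 8.81, whereas the first Nudt12 window of the block had 30 CpGs and 11.99 and the third Hs3st5 window 30 CpGs and 24.72.

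Position on the element was shared with the rest of the list. All 11 members with a LINE-1-type frame of at least 600 codons lay upstream of it, with their centres 1267.5 to 2767.5 bp before its start (median 1767.5). Of the other 334 lower windows with such a frame within 8000 bp, 329 (98.5%) lay upstream and 327 lay 1 to 5 kb before it, at a median of 1904.5 bp.

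**Figure D5:**
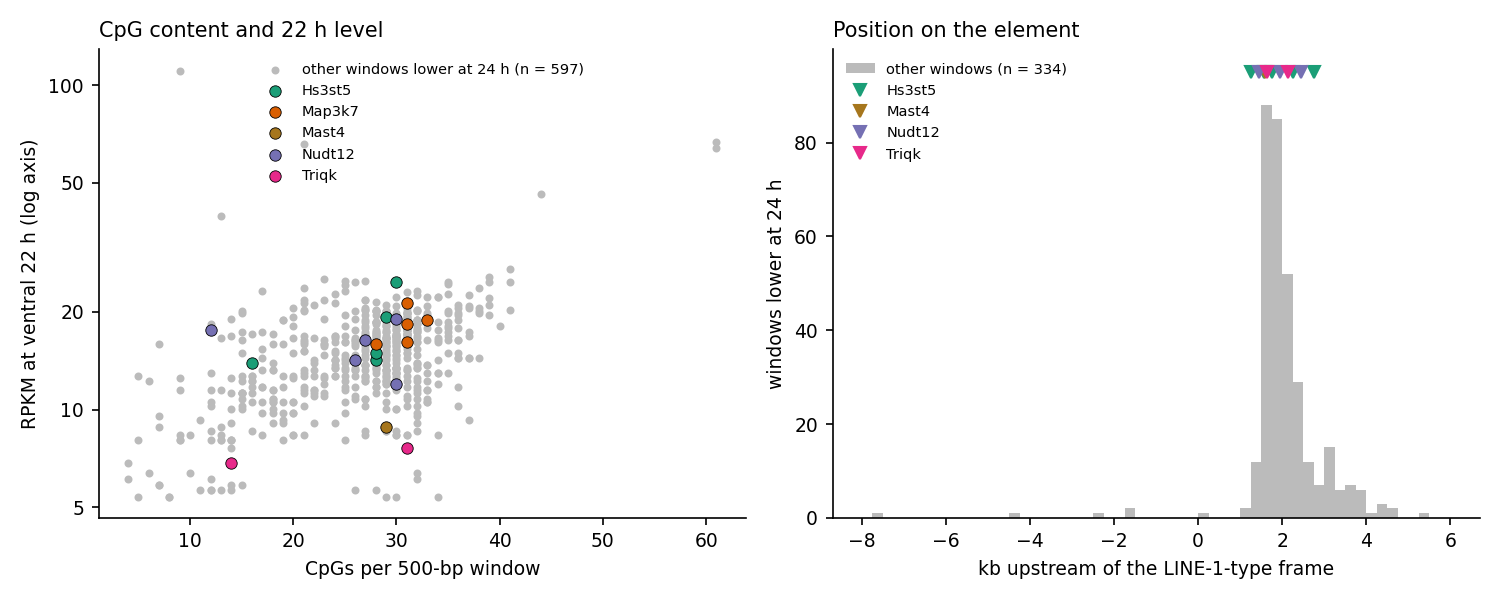
Left, CpGs per window (horizontal axis) and RPKM at ventral 22 h (log vertical axis) for the 18 members (coloured) and the 597 other windows lower at 24 h (grey). Right, number of the 334 other windows (grey bars) by distance upstream of the LINE-1-type frame (kb), with the 11 members as triangles, which lie between 1267.5 and 2767.5 bp.

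The sequence of the members is present in many copies, which bears on where reads could be placed. In 17 of 18 windows under 50% of the 31-base words occurred once in the genome, and with words of 100 bases the number was also 17. By the 31-base words the same held for 579 of the other 597 lower windows, so the members did not stand apart from the list here, and for 14.2% of the sampled grid windows. In the Map3k7 windows no word of 31 or of 100 bases occurred once, and the median 31-base word had 2199 to 2900 copies. Hs3st5 windows of the block of 4 had 1920 to 2887.5 copies, Nudt12 windows of the block of 3 had 2375 to 2547 and Mast4 had 1055. The 2 single Nudt12 windows had 611 and 158.5 copies. How the authors placed reads with several matches is not given in the sources used here, so the copy behind a given read cannot be told for most of these windows.

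The second Triqk window (13223501 to 13224000) was the exception. Of its 31-base words, 59.8% occurred once, and the row of units ends inside it. It had 28 reads at 22 h and 0 at 24 h, a ratio of at least 5.98 against the floor and at least 4.55 by the exact interval. Its neighbour, made almost wholly of units with a median of 2531.5 copies, had 31 reads at 22 h and 0 at 24 h. The window mostly of single-copy sequence and the window of repeated sequence therefore had similar values at this block. How many of its reads came from its repeated stretch was not tested.

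Words were shared widely with other windows of the list. Hs3st5 shared 31-base words with windows of 222 of the 638 other genes, Map3k7 and Mast4 with 181 each, Nudt12 with 243 and Triqk with 55. Nearest to Map3k7 were 4930448C13Rik, whose 4 windows held 71.6% of its words (and 42.5% of their own words were shared), Ctnnd2 with 67.1% and 3010001F23Rik with 63.9%. Their 9 windows were all lower at 24 h, with 1.15 to 4.21 RPKM at 24 h and 9.79 to 19.09 at 22 h. For Hs3st5 the nearest were Mctp2 (48.2%), 1700023F02Rik (43.2%) and 5330426P16Rik (38.5%). For Nudt12 they were Tbl1xr1 (26.3%), Tox3 (21.8%) and Hs3st5 (20.9%), and for Mast4 they were Smad2 (64.9%), D830032E09Rik (60.3%) and Ppm1h (57.3%). Tox3 was an exception in direction, with 2 of its 3 windows lower at 24 h and a range of 3.44 to 9.18 RPKM at 24 h and 1.96 to 18.11 at 22 h. Sharing was counted over the 3 Tox3 windows together. Whether the window not lower at 24 h holds any of the shared words was not tested.

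Triqk was most like D3Ertd751e (53.3%), Poteg (47.4%) and A330102I10Rik (45.5%). The 2 windows of D3Ertd751e had 0.38 to 1.15 RPKM at 24 h against 8.57 to 10.28 at 22 h, and those of Poteg 0.76 against 8.32 to 9.06. The 2 windows of A330102I10Rik were higher than those of Triqk, with 1.15 to 2.29 RPKM at 24 h and 13.46 to 13.95 at 22 h.

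Long blocks were uncommon in the list. Of its runs of adjoining windows of 1 gene lower at 24 h, 450 were single windows, 69 had 2 windows and 6 had 3. The runs of 4 and of 5 were those of Hs3st5 and Map3k7. The next longest outside the members had 3 windows each: Frmpd4, with a ratio of 7.16 (4.35 to 12.5), Thumpd2 with 4.85 (3.16 to 7.77), Pard6g with 4.53 (2.97 to 7.19), Edem1 with 8.32 (4.74 to 16) and Esp38 with 1.11 (0.98 to 1.25). The Esp38 run was unlike the members, with 40.15 to 63.09 RPKM at 24 h and 44 to 61 CpGs per window. At the other 4, between 2 and 3 of the 3 windows had tandem units, and all 3 lay near a LINE-1-type frame.

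In the other 3 lists no window was named after the 5 genes, and no window of any list other than the members lay within 10 kb of a member. The 26 h and dorsal values of the 18 windows were therefore not analysed here, and their absence from those lists does not show that the columns were alike.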

How the data were processed

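MeDIP libraries of 11 mouse SCN samples in 6 groups are labelled. Reads were aligned with BWA to mm9, per the submitters' processing notes. The authors deposited 4 lists of selected 500-bp windows with 1 column per cycle length, and how samples were combined or windows selected is not given in the sources used here. The deposited columns named counts hold a score that is not the reads behind the RPKM, and were not used for values. The authors' RPKM values below 15 were whole multiples of 1 step per ventral column within 0.01 RPKM (768 of 768 at 24 h, 504 of 504 at 22 h), which gave reads and depth. Per the file headers, the log2 fold change and the unadjusted p-value come from edgeR, with the 24 h column over the other. Of the rows, 3 repeated rows were dropped, none of them of a member.

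Sequences and genes came from the NCBIM37 (mm9) genome and GENCODE M1, the build of the files. Word copies were counted on both strands of the whole genome. Rows of units were traced by a stretch of the unit with up to 2 mismatches at 150 to 250 bp spacing, up to 5 kb from a block. Reading frames ran from stop to stop. No repeat annotation entered the work. The methods were tested on simulated data. Named were all windows of the 5 genes, listed windows within 10 kb, the 5 other genes with the longest runs and, per gene, the 3 genes sharing most 31-base words. The members, the stretches searched and the features were chosen with earlier results of these data known. Work was done in Python 3.11.15 with pysam 0.24.0, edlib 1.3.9.post1, numba 0.67.0, scipy 1.17.1, matplotlib 3.10.9, numpy 2.4.6 and pandas 2.3.3.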

Additional observations from a re-analysis of the deposited data

How the results depend on the processing

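Of 37 alternatives tried, 34 left the value within its counting interval, within 1 standard deviation over the windows (CpG number) or within 1.5 times (counts), and none reversed a direction. Triqk and Mast4 have no upper limit, so larger ratios count as within their intervals: with 0.5 reads added, the median of window ratios was 38.4 for Triqk (main bound 12.6) and 46.7 for Mast4 (7.68), values set by the added reads. With the longest run only, the Nudt12 ratio was 11.8, because its 2 windows without tandem units drop out. Without the window with the most reads at 22 h the Triqk bound was 5.98, and with every other window of a run, an alternative chosen after seeing the data, it was 6.62, since fewer reads at 22 h stand against the same floor. No paired analysis was possible because the columns carry no replicate numbers, and leaving out replicates was not run for the same reason. For Mast4, with a single window, leaving out its highest window gives no value. At 24 h each window rests on 12 reads or fewer, which limits the precision of every ratio.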

Other observations

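The 16-base stretch of the first kind of unit was found in 235 of the 812 windows of the ventral list against 22 h, all lower at 24 h, and the second kind in 91, all lower at 24 h. In the ventral list against 26 h, 1 of 217 windows held the first kind, at Nalcn, and this window was higher at 24 h. In the dorsal list against 22 h, 0 of 131 windows held either kind. The ventral lists share the 24 h column, the lists were selected separately, and windows outside them were not analysed here.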
